A study of Mus musculus with 6 samples.

Results

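Accessible chromatin at microRNA genes was described from ATAC-seq of mouse kidney cortex, an assay in which the Tn5 transposase cuts open DNA in isolated nuclei. An accessible interval was counted as lying at a microRNA gene if it was on an autosome and overlapped a gene that GENCODE M39 types as miRNA, after 1 kb had been added on both sides of the gene. This rule took 1206 of 274808 autosomal intervals (279569 intervals with X and Y), and these touched 961 of 2054 annotated autosomal microRNA genes. Of the 1206 intervals, 347 lay within 1 kb of a protein-coding transcription start site (TSS) and are called near, and 859 did not and are called away.

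The labels describe 3 WT libraries and 3 libraries from mice with a tubule-specific Acly knockout (Acly cKO), all with the treatment Control. By the study's methods the knockout mice are Acly fl/fl mice with Ksp-Cre, a Cdh16-driven Cre that recombines throughout the renal tubular epithelium, and the controls are Acly fl/fl littermates without Cre. Other cells of the knockout kidneys, such as endothelium and immune cells, are not targeted by this Cre. Strain, sex and age of these mice are not given in the labels. WT libraries came from label batches 1 and 2 and Acly cKO libraries from batches 4 and 5, which means that effects of batch and of genotype cannot be told apart.

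The peak list is 1 call on pooled libraries, so no value carries a replicate error, WT and Acly cKO were not compared, and the depth of each library is unknown. Further WT libraries that the study used are not analysed here, and the files do not say whether they entered the pool. In a whole cortex, a weak interval in all cells cannot be told apart from a strong interval in few cells. The values given for an interval are those at its highest summit, namely the fold enrichment, which is the pileup of cut fragments over the background, and the -log10 q. Both values ordered the summits alike, with 1549 distinct fold enrichments in 1549 distinct pairs, so they are not separate evidence. As a check of the tissue, all 6 kidney tubule genes looked up had a summit within 1 kb of a coding TSS, with fold enrichments from 4.19 at Aqp2 to 162 at Cdh16. Of 6 genes of other organs, 4 had one, the strongest at 3.67 (Ckm, muscle creatine kinase), while Myh6 and Krt14 had none. The Cre of the knockout mice is Cdh16-driven, and whether transgene copies added to the 162 at Cdh16 was not tested. The next highest tubule gene was Lrp2 with 33.1.

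MicroRNAs are short RNAs that are cut from a hairpin within a longer primary transcript and that repress messenger RNAs matching their seed. Many hairpins sit inside introns or exons of coding or long noncoding RNA (lncRNA) genes and are transcribed from the promoter of that host, which can lie far away. An accessible interval beside a hairpin may therefore be a host promoter, an own promoter or an enhancer, and ATAC-seq does not measure the microRNA itself.

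The mature sequences of the best known tubule microRNAs are given here to identify the products of genes described below, some with strong and some with weak intervals. They come from RefSeq by name, run 5′ to 3′, carry the seed (bases 2 to 8) in capitals, and were placed on GRCm39 by exact match. The miR-200 family is a mark of epithelial cells and holds back the epithelial to mesenchymal transition, and its 5 genes carry 2 seeds.
miR-200b-3p: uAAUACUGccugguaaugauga
miR-200c-3p: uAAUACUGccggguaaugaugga
miR-429-3p: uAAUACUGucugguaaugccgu
miR-200a-3p: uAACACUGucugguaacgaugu
miR-141-3p: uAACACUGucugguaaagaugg

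The miR-30 family is abundant in kidney epithelium and podocytes, and miR-192 and miR-194 are enriched in kidney, liver and gut.
miR-30a-5p: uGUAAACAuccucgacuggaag
miR-30c-5p: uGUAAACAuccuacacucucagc
miR-30e-5p: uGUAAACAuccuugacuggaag
miR-192-5p: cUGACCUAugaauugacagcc
miR-194-5p: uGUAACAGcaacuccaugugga

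The next sequences belong to the loci with the strongest intervals away from coding promoters and to the microRNAs best known in fibrosis: miR-17, miR-20a and miR-19a drive proliferation as products of the Mir17 to Mir92-1 cluster, miR-21a is induced in injured kidney, and the miR-29 family represses collagens.
miR-17-5p: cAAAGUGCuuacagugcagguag
miR-20a-5p: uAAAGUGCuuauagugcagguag
miR-19a-3p: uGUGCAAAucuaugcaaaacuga
let-7i-5p: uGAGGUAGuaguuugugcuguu
miR-22-3p: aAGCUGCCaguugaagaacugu
miR-21a-5p: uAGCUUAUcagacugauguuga
miR-29a-3p: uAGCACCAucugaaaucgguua
miR-29b-3p: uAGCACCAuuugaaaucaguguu
miR-29c-3p: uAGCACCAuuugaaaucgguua

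Windows of 121 bp centred on the highest summit of 6 loci show the accessible DNA itself, on the plus strand of GRCm39. Capitals mark a match to 1 of the motifs searched, and lower case marks the rest. The Mirlet7i window (chr10:122821773-122821893) was 87.6% GC and held CCGGAAGT, the letters bound by ETS factors.
Mirlet7i: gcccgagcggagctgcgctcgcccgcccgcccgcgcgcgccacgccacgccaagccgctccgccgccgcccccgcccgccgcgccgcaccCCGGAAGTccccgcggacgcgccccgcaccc
The Mir17 window (chr14:115278234-115278354) and the Mir22 window (chr11:75352279-75352399) had 68.6% and 64.5% GC and held none of the motifs.
Mir17: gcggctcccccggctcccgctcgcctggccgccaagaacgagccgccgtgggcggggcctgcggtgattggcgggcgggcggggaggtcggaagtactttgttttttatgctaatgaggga
Mir22: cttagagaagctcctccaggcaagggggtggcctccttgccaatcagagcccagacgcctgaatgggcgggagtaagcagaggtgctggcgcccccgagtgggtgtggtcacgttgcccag
The Mir21a window (chr11:86477873-86477993) had 51.2% GC, and the Mir30a window (chr1:23310642-23310762) was the poorest in GC with 45.5%.
Mir21a: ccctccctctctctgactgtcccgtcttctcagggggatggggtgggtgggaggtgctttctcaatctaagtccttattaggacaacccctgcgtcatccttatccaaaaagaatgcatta
Mir30a: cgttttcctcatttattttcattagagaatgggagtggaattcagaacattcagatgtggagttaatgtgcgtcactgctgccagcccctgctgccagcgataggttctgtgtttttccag
The window of Mir192 and Mir194-2 (chr19:6313166-6313286, 59.5% GC) held ATCATTAAC, which on the other strand carries the letters of the HNF1 motif.
Mir192: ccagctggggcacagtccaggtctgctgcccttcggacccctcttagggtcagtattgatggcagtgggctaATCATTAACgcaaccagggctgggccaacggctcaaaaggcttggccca

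Intervals at microRNA genes were near coding promoters more often than intervals in general. The near intervals made up 28.8% of the 1206 (Wilson 95% interval 26.3% to 31.4%), against 8.89% of all autosomal intervals. They were also wide, with a median of 4171 bp against 1931 bp for all near intervals, and a wide interval has more chance to reach a gene window than a narrow one. Width moved with membership in the same way away from promoters, where the median was 620 bp against 403 bp, and its part in the values below was not tested.

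Fold enrichment separated near from away intervals by an order of magnitude in the median. The near intervals had a median fold enrichment of 31.6 (order-statistic 95% interval 27.6 to 34.4) and a range of 1.70 to 119, and the away intervals a median of 2.68 (2.62 to 2.95) and a range of 1.70 to 65.7. Over all 1206 the median was 3.80 (3.47 to 4.32), beside 2.55 for all autosomal intervals. Within each class the intervals at microRNA genes lay above the class as a whole, since all near intervals had a median of 11.2 and all away intervals one of 2.42.

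A fold enrichment of at least 5 was reached by 534 intervals (44.3%), while 24.4% of all autosomal intervals reached it. Near coding promoters 303 of 347 did (87.3%, 83.4% to 90.4%), beside 62.5% of all near intervals. Away from them 231 of 859 did (26.9%, 24.0% to 30.0%), beside 20.7% of all away intervals. The away share was thus not far from its background. A q of 0.01 was missed by 97 of the 859 away intervals (11.3%), beside 16.7% of all away intervals, and 346 (40.3%) had a single summit, beside 56.3%. Among the near intervals 4 (1.15%) missed that q, beside 6.10% of all near intervals, and 24 (6.92%) had a single summit, beside 22.7%.

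**Figure D1:**
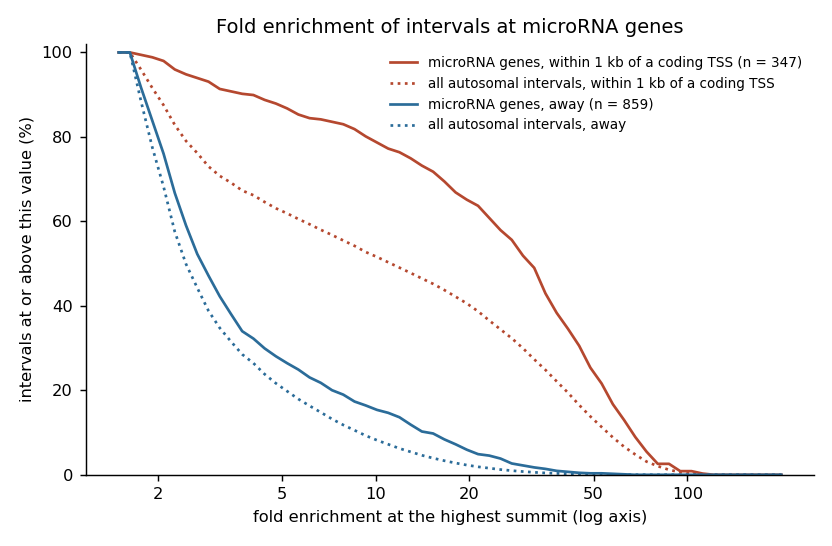
Share of intervals (y axis, percent) whose highest summit has at least the fold enrichment on the x axis (log axis), for intervals at microRNA genes (solid) and all autosomal intervals (dotted), near a coding TSS (red) and away (blue). Both solid lines lie above their dotted lines, by much more for near intervals (87.3% against 62.5% at a fold enrichment of 5) than for away intervals (26.9% against 20.7%).

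Away intervals close to a lncRNA start site had higher values than the others, as was the case among all away intervals. A lncRNA TSS lay within 1 kb of 137 of the 859 (15.9%, 13.7% to 18.5%), beside 7.84% of all away intervals. Those 137 had a median fold enrichment of 4.52, and 65 of them (47.4%) reached 5, beside 36.4% of all away intervals with such a start. The other 722, with no coding or lncRNA start nearby, had a median of 2.62, and 166 of them (23.0%) reached 5, beside 19.4% of all such away intervals. Most of the 231 away intervals that reached 5 therefore had no lncRNA start nearby.

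At the limits of the rule the values did not break off. The 14 microRNA genes whose nearest interval began 900 to 1000 bp away had a median fold enrichment of 3.90 there, and the 25 genes at 1000 to 1100 bp had one of 2.88, with single values up to 22.3. Likewise, 11 intervals lay 500 to 1000 bp from a coding TSS and had a median of 4.65, and 31 at over 1000 and up to 1500 bp had a median of 2.49.

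Seen from the genes, 46.8% of the 2054 microRNA genes had an interval (44.6% to 48.9%). The interval covered the hairpin itself at 651 genes (31.7%), and 285 genes (13.9%) had several intervals. For scale, 25.05% of assembled autosomal positions had an interval within a window as long as the median window of a microRNA gene, 2090 bp. Among other short RNA genes with the same 1 kb added, 365 of 1290 snRNA genes (28.3%) and 644 of 1442 snoRNA genes (44.7%) had an interval, so microRNA genes stood well above the former and close to the latter. Genes with a Mir symbol had an interval in 627 of 1097 cases (57.2%), and genes known only by another symbol, all but Snord43 predicted Gm genes, in 334 of 957 (34.9%). By chromosome the share ran from 31.7% of 259 genes on chromosome 2 to 67.9% of 137 genes on chromosome 11. Of the genes on chromosome 2, 119 form a single cluster within Sfmbt2 with 6 genes touched, and without it the share there was 76 of 140 (54.3%).

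The host gene context went with large differences in the share. Hairpins that overlapped an exon of a coding gene on the same strand had an interval in 227 of 292 cases (77.7%, 72.6% to 82.1%), and those in an exon of a lncRNA in 101 of 154 (65.6%, 57.8% to 72.6%). Hairpins in introns were lower, with 305 of 661 (46.1%) in coding genes and 59 of 159 (37.1%) in lncRNA genes. Hairpins antisense to a coding gene had an interval in 131 of 249 cases (52.6%), and those antisense to a lncRNA in 31 of 99 (31.3%). Intergenic hairpins were lowest, with 107 of 440 (24.3%, 20.5% to 28.5%), close to the 25.05% of positions in general. The 119 clustered genes within Sfmbt2, 6 of them touched, are counted in these shares. The shares by context were not recomputed without them.

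At exonic hairpins of coding genes the strongest interval was often near a coding TSS. Among the 227 exonic hairpins of coding genes with an interval, the strongest interval was near a coding TSS at 137 (60.4%), against 98 of 305 (32.1%) for introns. With those left aside, the order of hosts differed: the strongest away interval had a median fold enrichment of 5.63 at the 52 hairpins in lncRNA introns and 5.14 at the 72 in lncRNA exons. It had 3.67 at the 207 in coding introns and only 2.95 at the 90 in coding exons.

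The highest summit was often not at the hairpin. Where the strongest interval of a gene was near a coding TSS (350 genes), the highest summit lay a median of 1020 bp from the hairpin, was within 1 kb at 173 genes (49.4%) and over 3 kb away at 82 (23.4%). It was upstream of the hairpin at 211 of the 350 (60.3%) and downstream at 128. Where the strongest interval was away (611 genes), the median distance was 694 bp, the summit was within 1 kb at 414 (67.8%), and it was upstream at 299 and downstream at 278, in nearly equal numbers.

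A second reading took the highest summit within 1 kb of the hairpin, called local here. By construction it cannot exceed the value of the strongest interval, so only the size of the drop is a result. At the 345 near genes with a local summit the median local fold enrichment was 12.2, against 34.8 for the interval over all 350 near genes. At 136 of the 345 (39.4%) the local value was at most 0.5 of the interval value. At the 579 away genes with a local summit the local median was 3.08, against 3.60 for the interval over all 611 away genes. At 92 of the 579 (15.9%) the local value was at most 0.5 of the interval value. The value of an interval is thus not a value at the hairpin, above all near coding genes.

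**Figure D2:**
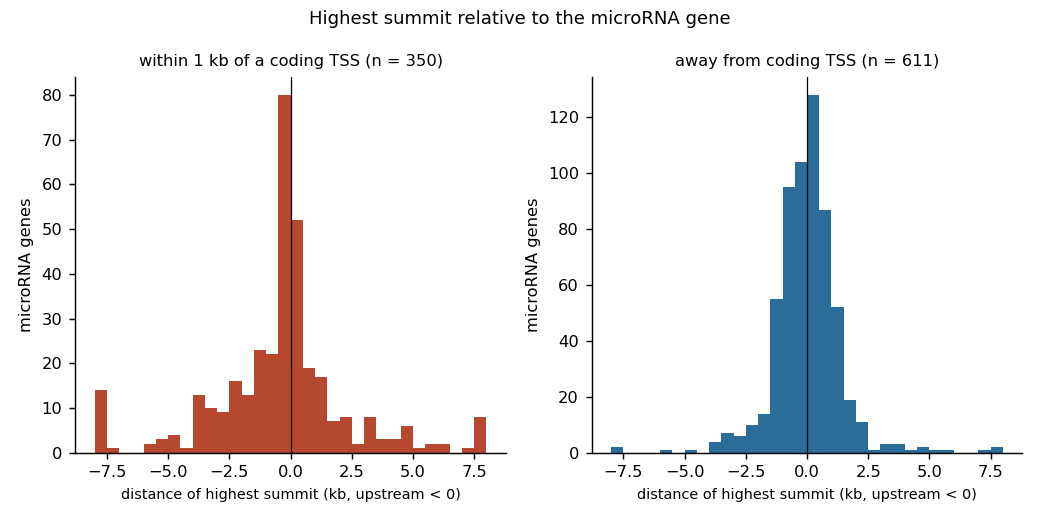
Number of microRNA genes (y axis) by the distance of the highest summit of their strongest interval (x axis, kb, upstream negative, values beyond 8 kb drawn in the outermost bins), for 350 genes with that interval near a coding TSS (left) and 611 with it away (right). Near intervals trail far to both sides, with 48 genes over 3 kb upstream and 34 over 3 kb downstream, while away intervals gather around the hairpin, with 15 and 14.

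The 10 strongest near intervals had fold enrichments of 79.7 to 119, and the coding genes named with them have a start within 1 kb of the interval. The strongest held Mir1938 (chr12:40269679-40275156, fold enrichment 119, -log10 q 3053), in an intron of Ifrd1, a stress-induced transcriptional regulator. Mir5627 followed with 104 at Dnajb9, a chaperone partner of the endoplasmic reticulum, and Gm54730 with 103 at Hsp90b1, the chaperone of the same compartment. The other 7 were Mir3569 (92.6, Kmt2b and Zbtb32), Mir3069 (91.4, Glrx5), Gm56192 (91.3, Asph), Gm54587 with Gm54588 (91.2, Rps29), Mir7009 (87.6, Anxa5), Mir3101 (87.3, Rab4b and Mia) and Mir5620 (79.7, Clcn4).

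At 8 of these 10 intervals the highest summit was 120 to 518 bp from the hairpin, so the hairpin lay close to the summit. At the remaining 2 it did not: the local fold enrichment was 7.01 at Mir3069, with the summit 1357 bp upstream, and 3.27 at Mir3101, with the summit 2888 bp upstream.

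The strongest away interval was that of the Mir17 to Mir92-1 cluster on chromosome 14 (chr14:115276185-115281821), where the fold enrichment reached 65.7 with 1423 as its -log10 q, above 99.5% of all autosomal intervals. The 6 hairpins, Mir17, Mir18, Mir19a, Mir20a, Mir19b-1 and Mir92-1, lie in exons of the lncRNA Mir17hg, their host transcript, whose start is within 1 kb of the interval. The strong summits upstream of Mir17 fell into 2 groups, with 53.8 and 65.7 at 2971 and 2809 bp and with 45.2 and 54.5 at 1572 and 1408 bp. Over the hairpins the fold enrichment was low, at 3.93 in the summit 116 bp after the start of Mir17 and 2.55 at 516 bp.

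Mir22, a microRNA of cell cycle arrest and metabolism annotated in an exon of Tlcd2 and close to the start of the lncRNA Mir22hg, had the second strongest away interval (chr11:75347496-75356713, 58.0). Its highest summit was 2203 bp upstream, and a local summit 650 bp upstream still had 40.1. Mirlet7i, a let-7 gene whose products hold back proliferation, had 41.4 only 204 bp upstream of the hairpin (chr10:122818850-122824938), and the GC-rich window printed above is that summit. Mirlet7c-2 and Mirlet7b shared an interval of 17038 bp in the lncRNA Lncppara with 32.3 at its highest summit, and local values of 19.3 and 11.0.

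Mir21a, in an exon of Vmp1, lay in an interval of 14649 bp (chr11:86464633-86479281) with 33 summits. The highest, with 39.5, was 2949 bp upstream, a second one of 35.3 lay 3599 bp downstream of the gene start, and a summit of 5.43 lay within the hairpin gene itself. Thus the strong accessibility flanked the hairpin on both sides.

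The other 10 of the 15 strongest away intervals included 3 at predicted genes, Gm55617 (55.8, in an intron of Zswim6), Gm55040 (41.2) and Gm55560 (36.9). Gm55040 lay beside this interval rather than in it, since the summit was 3376 bp upstream and the local value 2.62. A second interval at Gm55040 (chr7:25523433-25528124) had 26.4. The remaining named genes were Mir7671 (45.8), Mir7028 (44.0), Mir6769b (37.5), Mir3089 (36.4), Mir6962 (36.3), Mir7016 (34.8) and Mir8120 (33.4), and the let-7 pair above ranked below them. Local values stayed equal to the interval value at Mir7028, Mir7016 and Mir8120, and were 3.47 at Mir6769b and 5.63 at Mir6962.

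**Figure D3:**
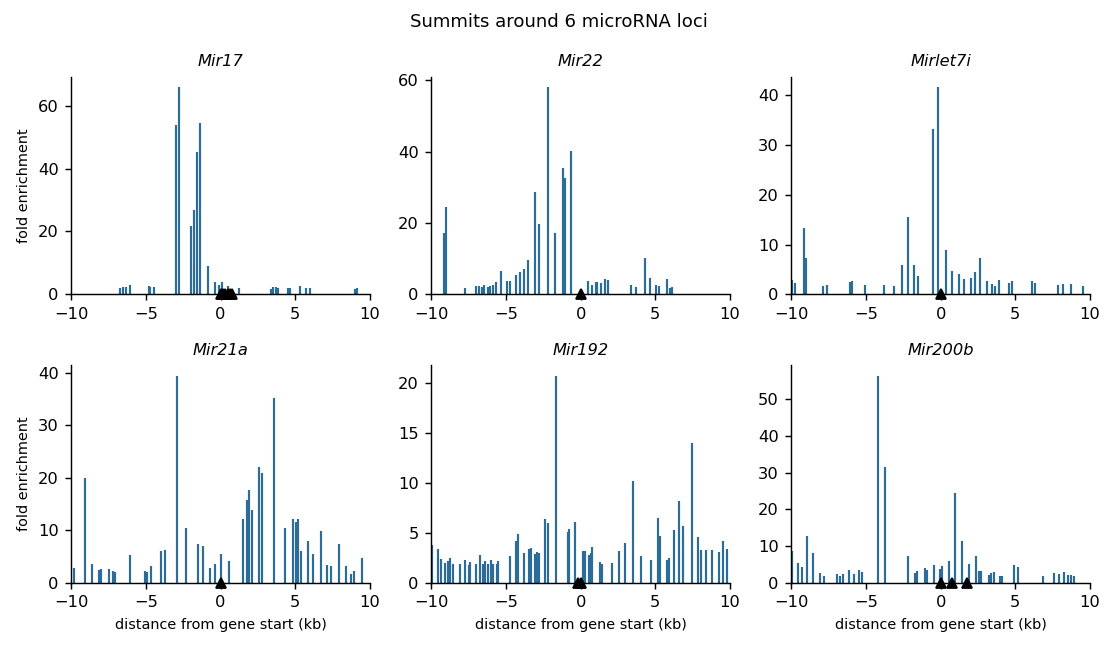
Fold enrichment of each summit (bars, y axis, linear from 0) by its distance from the start of the named microRNA gene (x axis, kb, upstream negative) at 6 loci, with triangles at the starts of all microRNA genes in view. Summits peak upstream of the hairpins at Mir17 (65.7), Mir22 (58.0), Mir192 (20.7) and Mir200b (56.4), at the hairpin for Mirlet7i (41.4) and on both sides of Mir21a (39.5 and 35.3).

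Of 18 microRNA genes known for kidney tubule epithelium, 14 had an interval (77.8%, 54.8% to 91.0%), 7 of them near and 7 away from a coding TSS, and their median was 20.7. This stood beside 46.8% of all microRNA genes and 57.2% of those with a Mir symbol, and the latter share lies inside the interval of the list. A fold enrichment of 5 was reached by 11 of the 18, beside 27.6% of all microRNA genes and 35.0% of those with a Mir symbol. The local value reached 5 at 9 of the 18, beside 23.9% of genes with a Mir symbol. For comparison, the median over the strongest intervals was 34.8 for all near genes and 3.60 for all away genes. Several of these genes share an interval, so the 14 are not 14 separate observations.

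The miR-200 family, whose mature sequences are printed above, had an interval at all 5 genes. Mir200c and Mir141 shared one of 14266 bp on chromosome 6 (chr6:124685028-124699293) that comes within 1 kb of the starts of the coding genes Phb2, Ptpn6 and Emg1. Its highest summit, with 59.0, lay 6124 bp from Mir200c, and the local value was 18.0 at 504 bp upstream of Mir200c. Mir200b, Mir200a and Mir429 shared one on chromosome 4 (chr4:156137266-156147328) in Ttll10, with 56.4 at 4170 bp upstream of Mir200b. A separate summit of 24.5 lay just after Mir200a, 925 bp after the start of Mir200b. Local signal was thus clear at both clusters, and lower than at the neighbouring summit in each.

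Mir192 and Mir194-2 start 201 bp apart in one away interval on chromosome 19 (chr19:6310059-6316318) with 22 summits. The highest, 20.7, was 1648 bp upstream of Mir192, and the local value was 6.09. The window of that highest summit holds the HNF1 letters, and HNF1 factors are regulators of tubule genes. Such a match was found in 13 of 859 away windows of 300 bp (1.51%) and in 1.56% of all autosomal windows, so it was no more frequent at microRNA genes.

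The miR-30 genes were uneven although their products share the seed GUAAACA. Mir30a had 30.1 at a summit 648 bp upstream of the hairpin and a second interval of 10.3. Mir30c-2 had 2.75, Mir30c-1 2.42 and Mir30e 1.77, the lowest value in the list. Mir30b and Mir30d, close together on chromosome 15, had no interval by the rule, but their nearest intervals missed it narrowly. The interval next to Mir30d was 1092 bp away with a fold enrichment of 13.0, and the one next to Mir30b was 1023 bp away with 3.47.

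The HOX cluster genes Mir10a and Mir10b were near the starts of Hoxb4 and Hoxd4, with 15.9 and 12.7, and had local values of 3.47 and 11.8. Mir802, which is expressed in liver and kidney, had an away interval of 12.5. Neither Mir194-1 nor Mir204, in an intron of Trpm3, had an interval, and the nearest were 14684 and 20469 bp away with 25.2 and 2.68.

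Of 13 microRNA genes known from fibrosis and injury, 12 had an interval (92.3%, 66.7% to 98.6%), 10 reached 5, and the median was 10.9, beside the same shares of all microRNA genes (46.8% with an interval, 27.6% at 5 or more) and of Mir symbols (57.2% and 35.0%). The local value reached 5 at 8 of the 13, beside 23.9% of Mir symbols. Some of these genes share an interval, so the 12 are not 12 separate observations. Mir210, the hypoxia microRNA, was strongest with 68.1 at 407 bp upstream of the hairpin, near the starts of Rassf7 and Lmntd2. Mir21a came next with the values above, and Mir132 and Mir212 shared a near interval of 19.7 at Hic1, with its summit 29 bp from Mir212. The libraries are from kidneys with the treatment Control, so these values belong to tissue without a labelled injury.

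The 4 miR-29 genes sit in 2 pairs and had close values, 11.1 at Mir29a and Mir29b-1 and 10.7 at Mir29b-2 and Mir29c. Local values were unequal within the pairs, with 11.1 at Mir29a and 4.58 at Mir29b-1, and 10.7 at Mir29c and 2.82 at Mir29b-2. The 3 miR-199 genes, which are known from fibroblasts, were lower, with 8.84 at Mir199a-1, 5.50 at Mir199b and 4.52 at Mir199a-2. Mir34a, a target of p53, had 4.58. Mir214, in the same host Dnm3os as Mir199a-2, had no interval, and the nearest was 2215 bp away with 1.96.

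Among 40 broadly expressed microRNA genes 31 had an interval (77.5%, 62.5% to 87.7%), 27 of them away, 22 reached 5, and the median was 17.7, again beside 57.2% and 35.0% of Mir symbols. The local value reached 5 at 16 of the 40, beside 23.9% of Mir symbols. Many of these genes share an interval, as in the Mir17 cluster, so the 31 are not 31 separate observations. Mirlet7e was the strongest with 68.5 near the start of Spaca6, with a local value of 10.5. Mir26a-2 and Mir26b, in genes of the Ctdsp phosphatases, had 63.8 and 59.0 in intervals near the starts of Ctdsp2 and Ctdsp1. Their local values were 3.80 and 6.61, and the summit at Ctdsp2 was 16960 bp upstream of Mir26a-2. The third gene of this seed, Mir26a-1 in Ctdspl, had 3.60.

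Clusters with related seeds did not have equal values. The cluster of Mir23b, Mir27b and Mir24-1 had 17.7 and that of Mir23a, Mir27a and Mir24-2 had 16.5, which was nearly the same. Local values differed more, with 7.79 at Mir23b, Mir27b and Mir24-1 and 16.5 at Mir23a, Mir27a and Mir24-2. Mir106b, Mir93 and Mir25, relatives of the Mir17 cluster within Mcm7, had 3.60, against 65.7 for Mir17, whose summit lay 2809 bp upstream. Local values were closer, with 3.60 at Mir106b, Mir93 and Mir25 and 8.97 at Mir17. They were 3.93 at Mir18, Mir19a, Mir20a, Mir19b-1 and Mir92-1. The seed AAAGUGC is carried by Mir17, Mir20a, Mir106b and Mir93, and all 4 had an interval.

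Of the 9 broadly expressed genes without an interval, some lay a short way from a strong interval and others did not. The nearest interval to Mir15b and Mir16-2, in an intron of Smc4, was 2229 and 2359 bp away with 53.2. The one next to Mirlet7c-1 was 1733 bp away with 15.3. Mir15a and Mir16-1 in Dleu2 had only one of 1.96, over 5 kb away, and Mirlet7d, Mirlet7f-1, Mirlet7a-2 and Mir103-2 had nearest values of 1.96 to 4.52. Over the genes whose matched mature sequence has the let-7 seed GAGGUAG, 7 of 11 had an interval, beside 57.2% of genes with a Mir symbol. The 7 include Mir1961, and Mirlet7a-2 is not among the 11. Over those with the miR-15 and miR-16 seed AGCAGCA, 4 of 10 had one. These 4 were Mir195a, Mir497, Mir6353 and Mir6419, and none was a Mir15 or Mir16 gene.

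Genes of microRNAs known from other cells of the kidney cortex also had intervals. The counts below stand beside 46.8% of all microRNA genes and 57.2% of those with a Mir symbol. Which cells gave these intervals was not tested. All 3 genes of endothelium and mural cells had an interval: Mir126a, the endothelial microRNA in Egfl7, had 20.0 and a local value of 3.93, and Mir143 and Mir145a, known from smooth muscle, shared one of 15.8 with local values of 2.10 and 10.6. Of 5 genes of immune cells, 3 had an interval. Mir150, known from lymphocytes, had the highest value, 67.0 in a near interval. That summit lay 7156 bp downstream of the hairpin, and the local value was 6.68. Mir155, induced in activated immune cells, had 4.06, and Mir142, a marker of blood cells, had 2.68. Mir146 and Mir146b had none by the rule, with nearest intervals of 26.5 at 10139 bp and 18.5 at 1215 bp.

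Genes known from other organs were mostly without an interval or weak. Mir122, the liver microRNA, had none, and the nearest was 8470 bp away with 2.88. Of 9 heart and skeletal muscle genes 2 had one (22.2%, 6.32% to 54.7%), Mir206 with 4.98 and Mir499 with 2.68, while both copies of Mir1a and Mir133a, and Mir133b, Mir208a and Mir208b had none. Of 12 genes of embryonic stem cells only Mir294 and Mir295 had one, which they shared, with 1.77. These shares stood beside 46.8% of all microRNA genes and 57.2% of those with a Mir symbol. The former lies inside the interval of the muscle list. The nearest intervals of the muscle genes without one were 1471 to 29284 bp away, with 1.77 to 4.78. For the stem cell genes without one they were 1245 to 2959 bp away, with 1.77 to 5.83.

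The exceptions among other organs were the nervous system, the islet and stratified epithelium. All 6 genes of the nervous system had an interval, each away from coding promoters, beside 57.2% of genes with a Mir symbol. The values were 11.2 at Mir9-2, 5.30 at Mir124a-3, 3.99 at Mir9-3, 3.21 at Mir9-1 and 2.62 at Mir124a-1, with the lowest at Mir124a-2. A fold enrichment of 5 was reached by 2 of the 6, beside 35.0% of genes with a Mir symbol. Mir375, known from pancreatic islets, had 14.1 at 229 bp upstream, and Mir203, known from skin, had 28.3 at 608 bp upstream, while Mir205 had none. Mir144 and Mir451a of red cell precursors shared an interval of 1.96, and of the sensory genes only Mir96 had one, with 2.88. The nearest intervals to Mir183 and Mir182 were 1065 and 1292 bp away, with 2.88 and 2.23. The one nearest to Mir205 was 2474 bp away with 7.86. An interval was thus not particular to microRNAs known for the kidney, and the lists were not tested against each other.

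**Figure D4:**
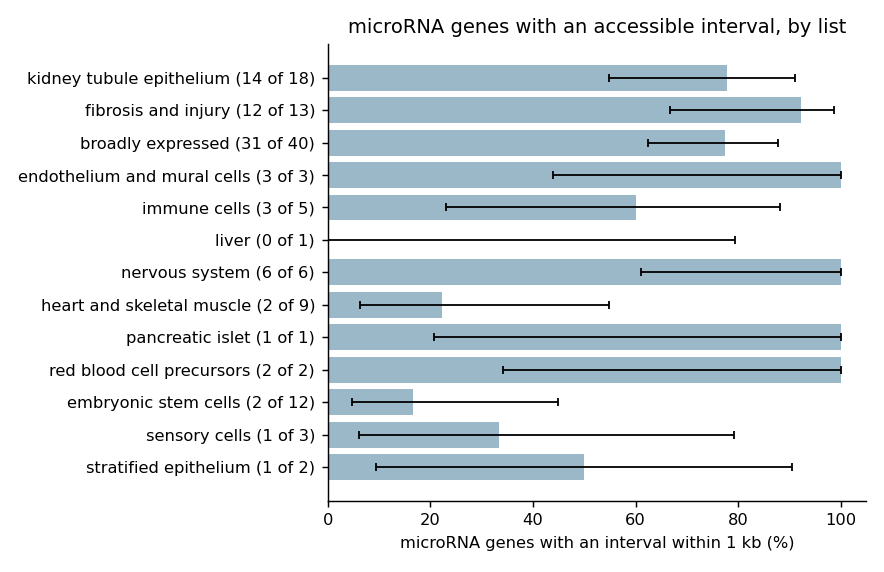
Share of the microRNA genes of each list with an interval within 1 kb (bars, x axis in percent from 0) with Wilson 95% intervals (lines), which cover counting error only. Genes that share an interval are counted separately. Over all microRNA genes the share was 46.8%, and over those with a Mir symbol 57.2% (neither is drawn). Tubule, fibrosis and broadly expressed genes lie between 77.5% and 92.3%, and muscle and embryonic stem cell genes at 22.2% and 16.7%. The bars of the nervous system (6 genes), endothelium and mural cells (3), red blood cell precursors (2) and islet (1) are full, since each of their genes had an interval, with wide intervals for these short lists.

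**Figure D5:**
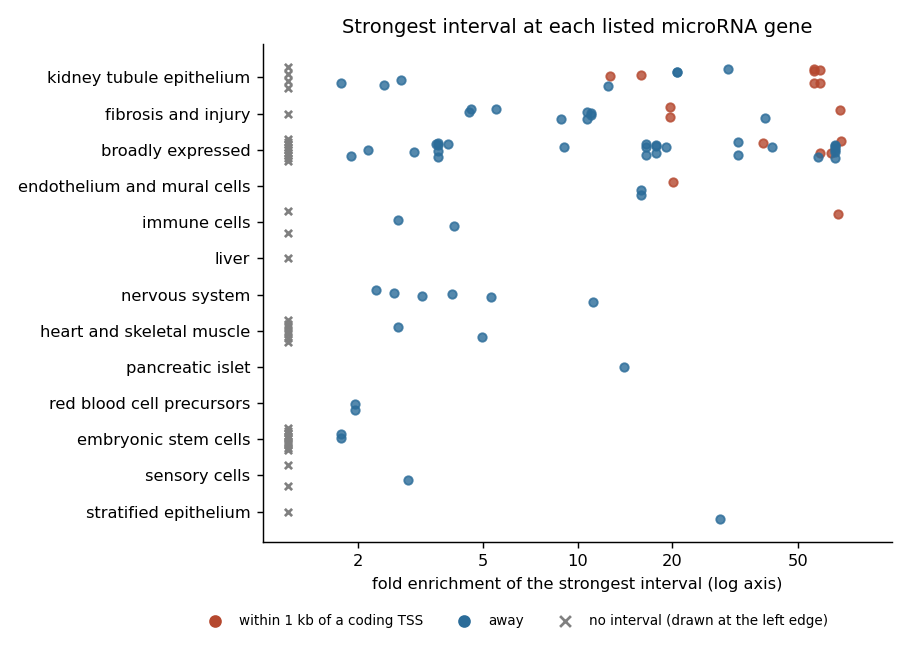
Fold enrichment of the strongest interval (x axis, log axis) at each listed microRNA gene, in red for intervals within 1 kb of a coding TSS and blue for away, with crosses at the left edge for genes without an interval. Tubule genes reach 59.0 and fibrosis genes 68.1, while nervous system genes end at 11.2 and muscle genes at 4.98.

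Physical clusters differed as much as single genes. With neighbours at most 10 kb apart, 487 genes formed 133 clusters and 1567 stood alone. The largest, 119 genes within Sfmbt2 on chromosome 2, had only 1 interval, which touched 6 of its genes and had a fold enrichment of 7.20, at Mir297a-3. In that cluster 45.7% of all words of 50 bp occurred more than once, and reads that did not map uniquely had been removed before the call. The part of this removal in the low count was not tested.

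The imprinted Dlk1 to Dio3 region on chromosome 12 held the next 2 clusters. The 44 genes from Mir379 to Mir3072 had 4 intervals that touched 7 genes, the strongest with 24.2 at Mir3072, whose local value was 1.90. The 16 genes from Mir770 to Mir136, around Meg3 and Rtl1, had 2 intervals that touched 7 genes, at most 2.68. Only 0.0566% and 1.79% of the words occurred more than once within the respective cluster. Copies elsewhere in the genome were not counted, so these shares do not show how well reads map there. The 9 genes from Mir290a to Mir295 had 1 interval of 1.77. Among the 2 clusters of 6 genes, all of Mir17 to Mir92-1 and none of the Mir344d-3 cluster had an interval.

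Base composition separated near from away intervals as fold enrichment did. In windows of 300 bp at the highest summit the median GC content was 63.0% for near, 52.3% for away and 49.3% for all autosomal intervals. A ratio of observed to expected CpG over 0.6, as in CpG islands, was found in 226 near windows (65.1%) and 43 away windows (5.01%), beside 5.50% of all windows. Neither composition nor the motifs below were computed for all near intervals as a class. Whether near windows at microRNA genes differ from other windows near a coding TSS was therefore not tested.

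The motifs were searched on both strands as exact letters, with N for any base. The ETS letters CCGGAAGT were in 6.05% of near, 0.582% of away and 0.748% of all windows, and the NRF1 letters GCGCATGCG in 2.31% of near, 0 of 859 away (which allows a share of up to 0.349%) and 0.236% of all windows. Both are motifs of GC-rich promoters. The AP-1 letters TGANTCA were in 8.07% of near and 14.0% of away windows, beside 15.1% of all, and the HNF4 letters CAAAGTCCA in 0.288% and 0.698%, beside 1.04%. The HNF1 letters GTTAATNAT were in 1.44% of near windows. A match describes the letters only and does not show binding.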

How the data were processed

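ATAC-seq libraries of mouse kidney cortex were grouped by the labels into 3 WT and 3 Acly cKO libraries. Per the methods, the authors used fastp for trimming and Bowtie2 2.3.4.3 for alignment to mm39 (GRCm39), removed duplicates and reads without a unique position, called peaks with MACS3 3.0.0 at a q of 0.05 with a fragment extension of 200, and removed blacklisted regions with bedtools 2.29.1. The labels also name deepTools 3.5.1. The deposited peak list gives, for 1 pooled call, the fold enrichment (a linear ratio to the background, computed by the authors), the -log10 q and the summit position. No read counts or depths per library were used, so depth is unknown.

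Rows were grouped into distinct intervals, each with the values of its highest summit by -log10 q, and joined to GENCODE M39. A coding TSS is the start of any protein-coding transcript. The local value is the highest summit within 1 kb of the gene. Shares carry Wilson intervals at 95% and medians order-statistic intervals, which cover counting error over intervals only. No test was run, since there is 1 pooled list. Overlaps and distances were tested on simulated data.

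RefSeq sequences matched 934 microRNA genes by name. Because that table is built on GRCm38, positions were taken from exact matches in GRCm39, which placed 919 genes. Genes were named as the 15 strongest away and 10 strongest near intervals, the members of 13 lists of microRNAs known for tissues, and the 5 largest clusters. The 6 summit windows printed, and the seeds and limits described, were chosen after values were seen. The members and lists were chosen with earlier results of these data known. Alternatives changed the added length, the distance to a TSS, the start sites, the thresholds, the summit rule, the gene symbols and the chromosomes. Analyses used Python 3.11.15, numpy 2.4.6, pandas 2.3.3, scipy 1.17.1 and matplotlib 3.10.9. The coding genes beside 1 listed immune cell gene are not reported here.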

Additional observations from a re-analysis of the deposited data

Results flagged for a closer look

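The sex chromosomes were outside the rule, and a signal was seen there. On X and Y, 22 of 147 microRNA genes (14.97%) had an interval, in 17 intervals with a median fold enrichment of 3.27, the strongest of 19.4 at Mir5132 and Mir718. The difference from the autosomal share of 46.8% was not tested, and mapping and copy number of X and Y in the pooled libraries were not examined.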

How the results depend on the processing

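Of 43 recomputed values, 18 stayed within counting error, or within 1.5 times for counts, and 25 moved. Adding 5 kb on both sides gave 3850 intervals (1206 in the report), 17.2% near (28.8%), 66.6% of genes (46.8%), 29.7% with a fold enrichment of at least 5 (44.3%) and a median of 2.68 (3.80). Without added length the values were 591, 46.7%, 31.7%, 66.5% and 13.2, and with the highest summit required inside the window 799, 23.9%, 33.9%, 33.7% and 2.95. Limiting to a q under 1e-05 gave 38.3%, 39.6%, 62.2% and 8.71 for the last 4. Mir symbols alone gave 780 intervals at 57.2% of genes. With 1 TSS per gene 23.1% were near, and with 3 kb from a TSS 37.9%. A threshold of 10 was passed by 33.8%. Leaving out the 3 clusters of 10 or more genes, chosen after seeing the data, gave 50.2% of genes. Longer windows take in more intervals by construction, and the cause of the other shifts was not tested. No paired analysis was possible because 1 list covers all libraries. Replicates could not be left out for the same reason.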

Other observations

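Of 874 summits that were removed between the unfiltered and the filtered deposited list, 3 lay at autosomal microRNA genes, so the filter took little from the values above. An interval was shared by several microRNA genes in 72 of 1206 cases (5.97%).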
